A study of Mus musculus with 2 samples.

Results

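The Hox genes are the homeobox transcription factor genes that lie in 4 chromosomal clusters, HoxA to HoxD, and are numbered within each cluster by paralogue group. All 39 genes whose name is Hox followed by a cluster letter and a number were taken from the 27998 gene names of both count tables: 11 from HoxA, 10 from HoxB, 9 from HoxC and 9 from HoxD. They were described in single cells scraped from the aortic inner surface of 1 young C57BL6/J mouse, 8 weeks old, and 1 old C57BL6/J mouse, 18 months old. No treatment or transgene is named for either animal, and the vessel had been freed of its adventitia before a short trypsin digestion. The labels give no position along the aorta for any cell, and each age is 1 animal and 1 library, so age and every difference between the 2 preparations cannot be told apart. Between the ages there is therefore no test, and every interval on a value from 1 library covers counting error only.

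Hox proteins bind DNA together with the TALE homeodomain cofactors of the Pbx and Meis families and give cells along the head-to-tail axis of the embryo their regional identity. Genes with low paralogue numbers lie at one end of each cluster and are switched on early and far forward, genes with high numbers lie at the other end and are switched on late and further back. Adult fibroblasts, smooth muscle cells and endothelial cells keep a Hox profile that depends on where in the body they came from, and mutation of Hoxa3 disturbs the arteries that form from the pharyngeal arches.

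The unit is the UMI, a molecular tag that counts 1 captured RNA molecule, and levels are given as CPM, the UMIs of a gene per 1000000 UMIs of a class of cells in 1 library. The kit reads the 3′ end of each RNA, so a level was not divided by gene length. The young library held 1366 barcodes with a median of 7558.5 UMIs and the old one 3408 with a median of 4737, and 11 barcode sequences occurred in both. Cells were clustered on all genes except the 58 that lie within the Hox clusters, so no Hox gene helped to define a class or subtype. The endothelial-like class (1081 young and 2384 old cells) had Pecam1 in 100% of its cells at 3784 and 3485 CPM, and its summed lymphatic marker level was 20.3 and 33.1 CPM. The fibroblast-like class (239 and 572 cells) had Dcn in 100% of its cells, so the preparation is not purely endothelial. Each class split into a pair of subtypes by marker trios: endothelial cells into a Coch, Sost and Adra2a subtype (447 young, 420 old cells) and a Bcan, Isl1 and Frzb subtype (634 and 1964), fibroblasts into a Gdf10, Mfap4 and F3 subtype (102 and 63) and a Dact2, Igfbp5 and Sema3c subtype (137 and 509).

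Of the 39 Hox genes, 29 had at least 1 UMI in the barcodes of both libraries together and 10 had none: Hoxa13, Hoxb1, Hoxb13, Hoxc11, Hoxc12, Hoxc13, Hoxd1, Hoxd11, Hoxd12 and Hoxd13. These include all genes of paralogue groups 12 and 13, which pattern the distal limb, the tail and the urogenital tract, and Hoxb1, a hindbrain gene. A further 4 genes, Hoxa11, Hoxc10, Hoxd3 and Hoxd10, were seen but stayed under 20 UMIs in endothelial-like and fibroblast-like cells together. The remaining 25 genes reached 20 UMIs and carry the results. A count of 0 in the young endothelial-like sum allows a level of up to 0.298 CPM, and in the smaller young fibroblast-like sum up to 1.46 CPM.

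The 4 stretches that follow are the 250 bases upstream of the RefSeq transcription start on GRCm38.p6, read 5′ to 3′ on the gene's own strand, with each CG pair in capitals. They stand for the 4 patterns found here. Hoxa5 was high in endothelial-like and fibroblast-like cells, Hoxa9 almost only in endothelial-like cells, Hoxc4 almost only in fibroblast-like cells, and Hoxa11 close to absent from both.
Hoxa5 (chr6:52204588-52204837, minus strand): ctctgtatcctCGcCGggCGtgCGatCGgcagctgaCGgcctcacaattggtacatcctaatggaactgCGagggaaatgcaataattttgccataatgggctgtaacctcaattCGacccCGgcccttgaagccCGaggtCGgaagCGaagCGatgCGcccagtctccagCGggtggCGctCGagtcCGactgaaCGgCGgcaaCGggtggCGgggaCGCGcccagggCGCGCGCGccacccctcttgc
Hoxa9 (chr6:52227371-52227620, minus strand): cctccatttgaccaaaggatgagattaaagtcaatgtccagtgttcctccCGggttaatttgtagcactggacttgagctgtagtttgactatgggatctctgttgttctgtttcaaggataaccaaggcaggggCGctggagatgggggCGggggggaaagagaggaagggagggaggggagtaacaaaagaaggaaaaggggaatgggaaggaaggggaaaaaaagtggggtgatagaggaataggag
Hoxc4 (chr15:103034145-103034394, plus strand): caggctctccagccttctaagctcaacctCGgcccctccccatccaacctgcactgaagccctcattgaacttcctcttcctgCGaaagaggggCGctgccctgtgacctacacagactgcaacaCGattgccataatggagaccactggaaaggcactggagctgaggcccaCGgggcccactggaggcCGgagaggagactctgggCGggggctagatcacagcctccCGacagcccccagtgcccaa
Hoxa11 (chr6:52245811-52246060, minus strand): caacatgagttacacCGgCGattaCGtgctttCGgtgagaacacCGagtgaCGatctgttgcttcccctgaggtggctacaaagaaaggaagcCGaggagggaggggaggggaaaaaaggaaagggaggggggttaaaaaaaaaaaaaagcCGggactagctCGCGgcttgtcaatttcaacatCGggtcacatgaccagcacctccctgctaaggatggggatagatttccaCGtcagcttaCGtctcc
The Hoxa5 stretch holds 28 CG pairs, the Hoxa11 stretch 13, the Hoxc4 stretch 8 and the Hoxa9 stretch 3. Of the 39 genes, 22 matched the RefSeq promoter table by symbol, with 24 entries whose CG count ran from 2 to 35 with a median of 12.5, beside a median of 6 over all 32851 promoters of the same length. The CG count did not follow the expression pattern among these 4: the near-silent Hoxa11 stretch has more CG pairs than those of Hoxa9 and Hoxc4. The 8-letter Hox and Pbx motif TGATNNAT, searched on both strands, was in 4 of the 24 Hox entries and in 7.68% of all promoters. The Meis motif TGACAG, which shares its first letters TGA with the other motif, was in 2 of the 24 and in 15.9% of all promoters. None of the 4 printed stretches holds either string.

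Endothelial-like cells carried a broad Hox profile made almost wholly of HoxA and HoxB. All Hox genes together reached 664.3 CPM (6680 UMIs) in the young and 718.9 CPM (10122 UMIs) in the old library. HoxA gave 48.1% of the Hox UMIs in either library, HoxB 45.4% in the young and 45.3% in the old, and HoxD 6.30% and 6.02%. HoxC gave 0.195% and 0.603%, or 1.29 and 4.33 CPM. By paralogue group, the middle of the clusters was highest. Groups 5 to 8 stood at 348 and 413 CPM, groups 1 to 4 at 152 and 165 CPM, and groups 9 to 13 at 163 and 141 CPM.

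Within HoxA the 2 highest genes in endothelial-like cells were Hoxa5, which directs lung and neck patterning, and its trunk neighbour Hoxa7. Hoxa5 stood at 93.1 CPM (95% interval 87.2 to 99.2) in the young and 115 CPM in the old library, and Hoxa7 at 86.7 CPM (81.1 to 92.7) and 108 CPM. Their intervals overlapped, so the order of these neighbours is not resolved. Hoxa6, which lies between them on the chromosome, was far lower, at 1.79 and 2.77 CPM. Hoxa9, a gene best known from blood stem cells and leukaemia, followed at 61.7 and 54.3 CPM. Hoxa10, which patterns the uterus and the lumbar spine, stood at 34.9 and 25.3 CPM, and beyond it the cluster fell silent, with 2 UMIs of Hoxa11 in each library and none of Hoxa13. On the forward side, Hoxa3, required for the thymus, parathyroid and carotid body, reached 21.2 and 19.1 CPM. Hoxa2, the gene that sets the identity of the hyoid arch, reached 9.95 and 11.6 CPM, and Hoxa4 8.06 and 8.24 CPM.

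HoxB was more even. All 8 genes from Hoxb2 to Hoxb9 lay between 22.8 and 58.8 CPM in the young endothelial-like cells and between 25.9 and 65.7 CPM in the old. Hoxb9, a rib and thorax gene, was highest in the young library at 58.8 CPM (54.1 to 63.7) and Hoxb7 at 53.7 CPM (49.3 to 58.4) overlapped it. In the old library the order was the other way, with Hoxb7 at 65.7 and Hoxb9 at 53.5 CPM. Hoxb3, a hindbrain and pharyngeal gene, was lowest in both libraries, at 22.8 and 25.9 CPM. HoxD was represented by 3 genes. Hoxd4 stood at 19.0 and 24.4 CPM, Hoxd8 at 15.4 and 12.6 CPM and Hoxd9 at 7.46 and 5.82 CPM, so the level fell with the paralogue number.

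**Figure D1:**
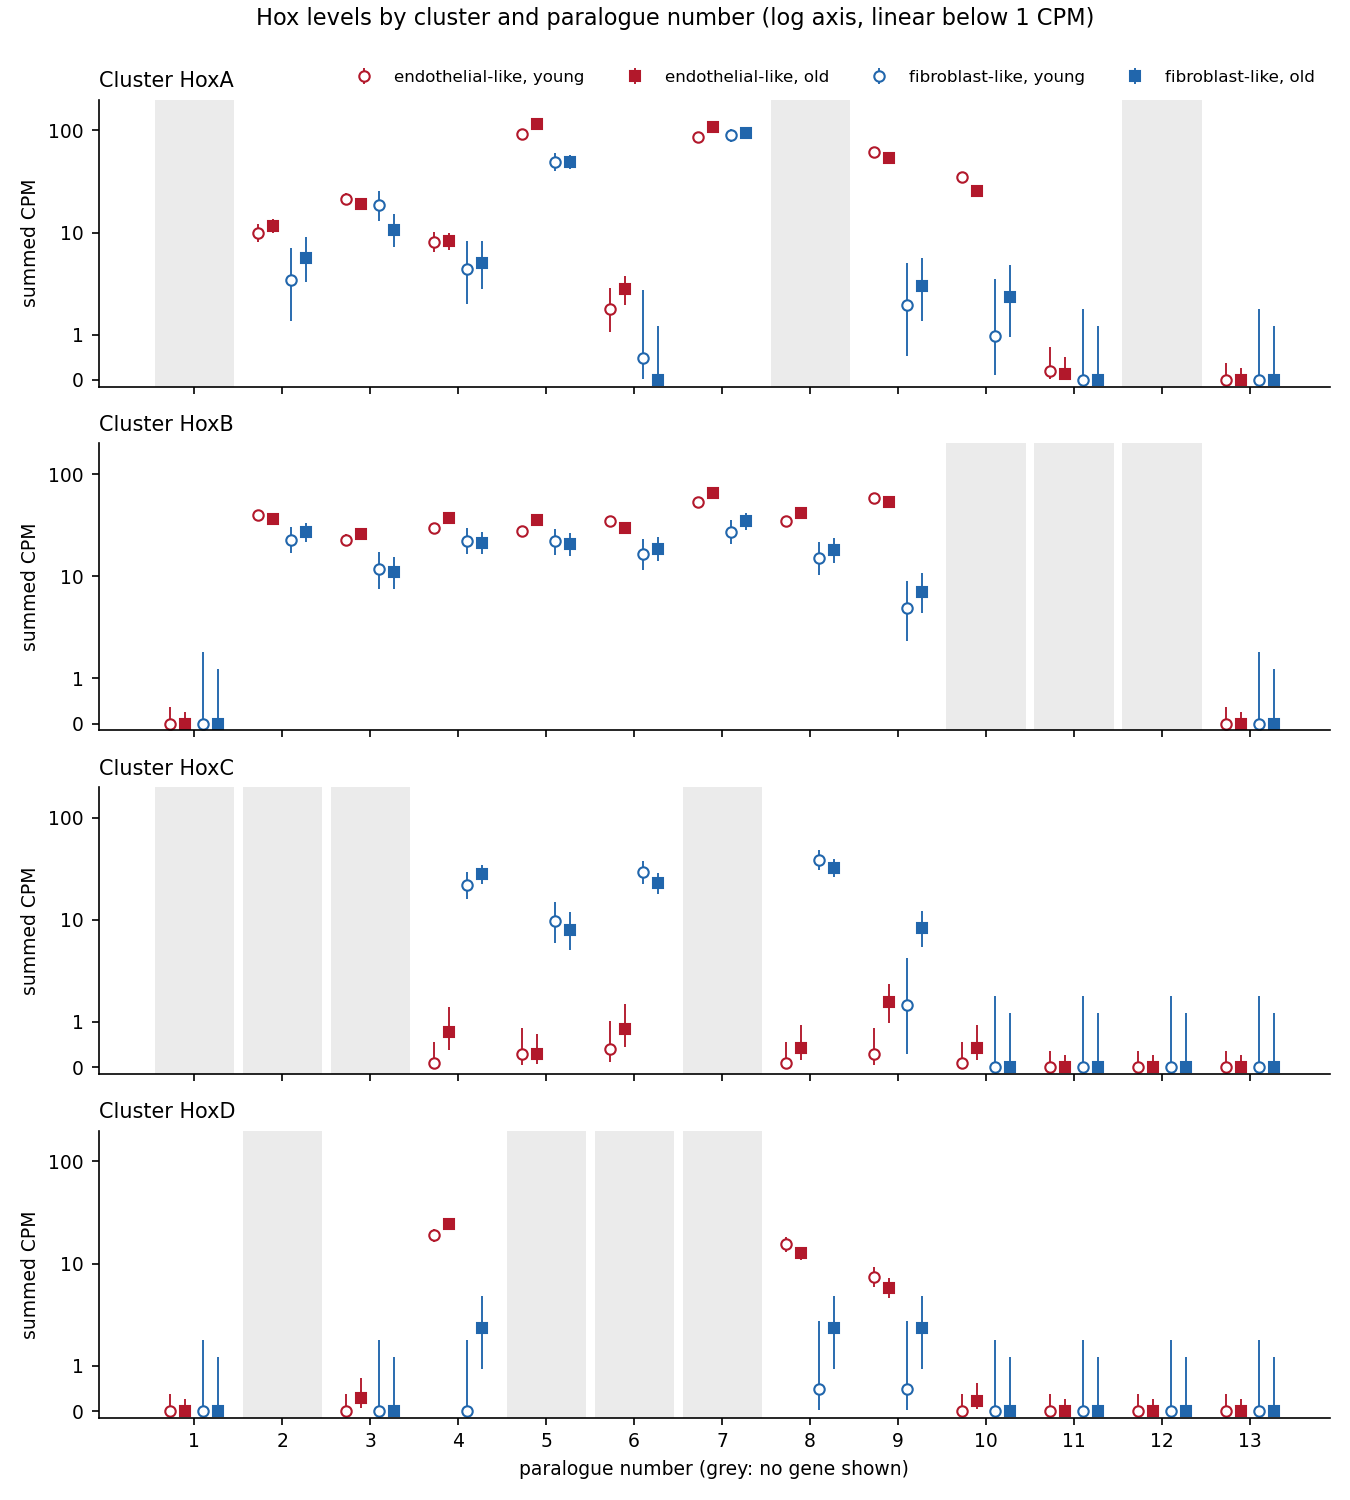
CPM of Hox genes in endothelial-like and fibroblast-like cells of the young and the old library, by cluster (panels) and paralogue number (x axis); the y axis is logarithmic above 1 CPM and linear below, bars are exact Poisson 95% intervals, and grey marks numbers with no gene shown. HoxC stands out in fibroblast-like cells only, with Hoxc8 at 38.9 and 32.3 CPM, while Hoxa9, Hoxa10 and Hoxb9 stand out in endothelial-like cells only.

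Fibroblast-like cells had a lower Hox sum that was cut off at a lower paralogue number and drew on HoxC in place of HoxD. The sum was 413.7 CPM (851 UMIs) in the young and 437.3 CPM (1314 UMIs) in the old library. HoxA gave 40.9% and 39.5% of the Hox UMIs, HoxB 34.4% and 36.1%, HoxC 24.4% and 22.8%, and HoxD 0.235% and 1.6%. Groups 5 to 8 gave 72% and 68.9% of the UMIs, and groups 9 to 13 only 2.35% and 5.25%, beside 24.6% and 19.6% in endothelial-like cells. Hoxa7 was the highest single gene, at 89.4 (77.0 to 103) and 94.5 CPM, about its level in endothelial-like cells, and Hoxa5 came next at 49.1 and 49.3 CPM.

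The HoxC genes of the fibroblast-like cells ran from Hoxc4 to Hoxc9. Hoxc8, which patterns the thorax and forelimb motor neurons, was highest at 38.9 CPM (80 UMIs) in the young and 32.3 CPM (97 UMIs) in the old library. Hoxc6, another thoracic gene, stood at 29.2 and 23.0 CPM, and Hoxc4 at 21.9 and 28.0 CPM. Hoxc5 was lower at 9.72 and 7.99 CPM. Hoxc9 differed between the libraries, with 3 UMIs (1.46 CPM) in the young and 25 UMIs (8.32 CPM) in the old. In endothelial-like cells none of these 5 genes passed 1.56 CPM in either library.

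**Figure D2:**
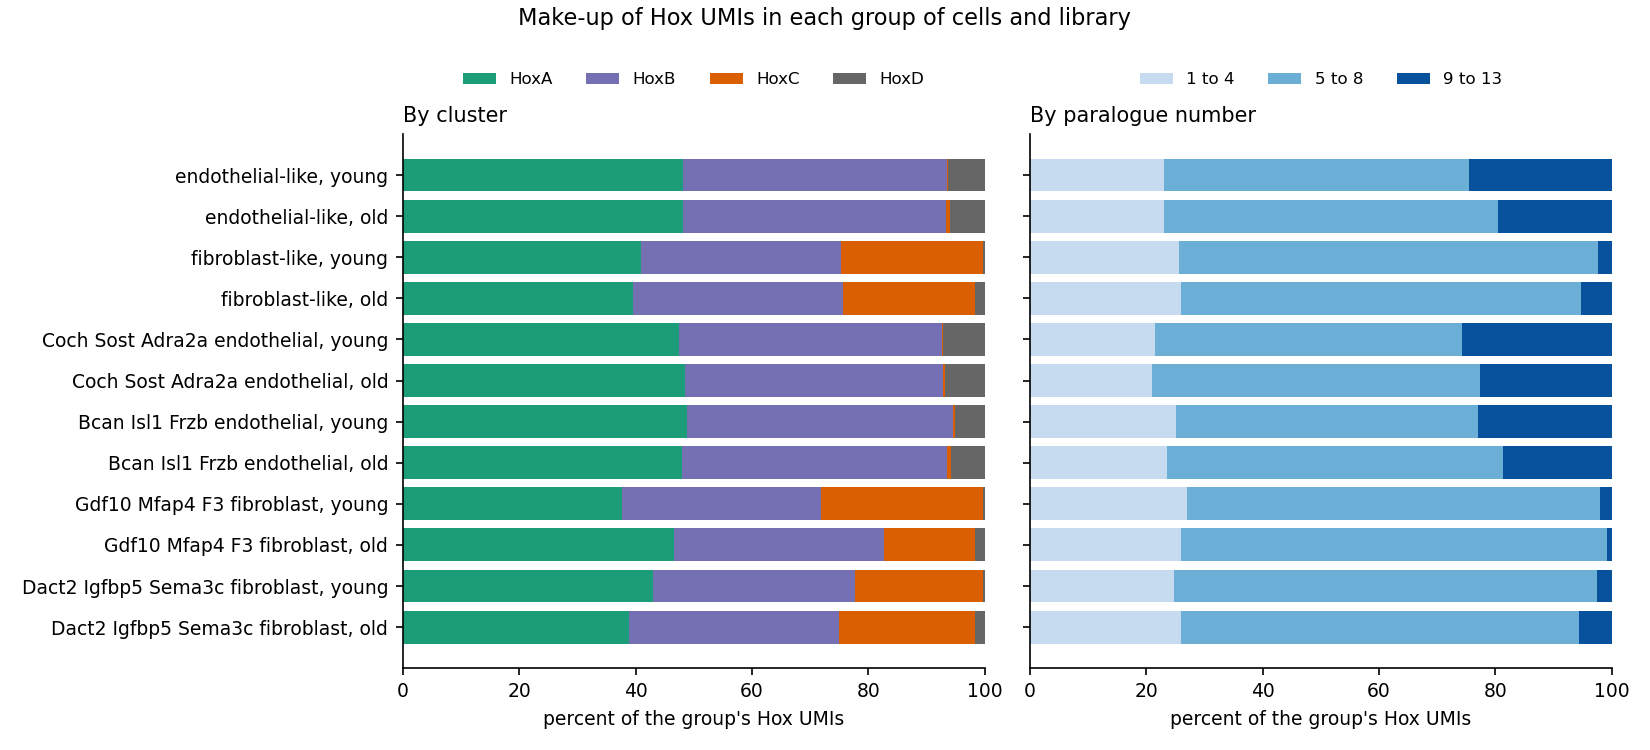
Percent of all Hox UMIs that came from each Hox cluster (left) and from each band of paralogue groups (right) in endothelial-like and fibroblast-like cells and their subtypes, for each library. The HoxC share is 24.4% and 22.8% in fibroblast-like and 0.195% and 0.603% in endothelial-like cells, and the share of groups 9 to 13 is 24.6% and 19.6% in endothelial-like and 2.35% and 5.25% in fibroblast-like cells.

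Most cells carried at least 1 Hox UMI, and the share depends on depth. It was 93.4% of young and 90.0% of old endothelial-like cells (median 7396 and 4991.5 UMIs per cell) and 92.5% and 83.9% of fibroblast-like cells (8440 and 4830 UMIs). With every cell thinned to 3100 UMIs and shallower cells left out, it was 81.8% (79.3 to 84.2) of 980 young and 86.5% (84.9 to 88.0) of 1824 old endothelial-like cells. The same share was 71.2% (64.7 to 77.0) of 222 young and 69.9% (65.6 to 74.1) of 469 old fibroblast-like cells. At that depth an endothelial-like cell held 2.0 ± 1.59 (SD over cells) Hox UMIs in the young and 2.23 ± 1.62 in the old library, and a fibroblast-like cell 1.47 ± 1.38 and 1.30 ± 1.24. No single gene was seen in most cells: the most frequent, Hoxa5, had a UMI in 46.3% of young endothelial-like cells before thinning.

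Cells of other classes show how much Hox RNA was seen outside these classes. Macrophage-like cells had a Hox UMI in 46.2% of 13 young and 29.0% of 155 old cells, or 30.8% and 18.2% after thinning, at medians of 7079 and 4092 UMIs before it. Whether this is free RNA or comes from the cells was not tested. The macrophage-like Hox sum was 44.8% and 16.2% of the endothelial-like level, beside 29.0% and 18.4% for the sum of the endothelial markers. In the old library Hox RNA was thus present there at about the ratio of the endothelial markers. In the young library, with 13 cells, it lay above that ratio and above the highest single endothelial marker, at 38.7%. Old T or NK-like cells had a Hox UMI in 17.9% of 123 cells, or 32.3% of the cells deep enough to thin, and their Hox sum was 23.8% of the endothelial-like level, beside 15.9% for the endothelial markers. HoxC had no UMI in macrophage-like cells, which allows up to 3.92 CPM in the old library, where fibroblast-like cells stood at 99.5 CPM. In old T or NK-like cells HoxC had 9 UMIs (23.0 CPM), 23.1% of the fibroblast-like level. Summed fibroblast markers stood at 2059.5 CPM in these cells, beside 21460 CPM in fibroblast-like cells. This old class also carried B cell markers, at 1129 CPM beside 1888 CPM for the T or NK markers, so its name covers a mixed lymphocyte group. The macrophage-like Hox sum of 116.2 CPM (93.3 to 143.0) in the old library lay under those of both classes. In the young library, 297.8 CPM (219.6 to 394.9) from 13 cells overlapped the fibroblast-like interval of 386.3 to 442.4 CPM.

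The fibroblast-like and endothelial-like profiles were then compared within the animals. Counts were summed over the cells of each class in each library and tested with edgeR's quasi-likelihood test with the animal as a block, with Benjamini-Hochberg adjustment over all 11902 genes tested. Of 25 Hox genes tested, 5 were higher in fibroblast-like cells, 13 were higher in endothelial-like cells and 7 did not pass. Among all genes 45.4% were called, 22.6% higher in fibroblast-like and 22.8% higher in endothelial-like cells. The median log2 difference, fibroblast-like minus endothelial-like, was -0.67 over the Hox genes and -0.05 over all genes. All 18 called Hox genes differed in the same direction in both libraries, and for 17 of them the class levels did not overlap. Hoxc9 is the exception, because its young fibroblast-like level of 1.46 CPM lay under its old endothelial-like level of 1.56 CPM. The matching shares over all called genes were not counted. A gene called from 2 animals will mostly go the same way in both, so these counts add no support.

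The 5 genes higher in fibroblast-like cells were the 5 HoxC genes. Hoxc8 had 1 and 6 UMIs in the young and old endothelial-like cells (0.0995 and 0.426 CPM) against 80 and 97 in the far fewer fibroblast-like cells, a log2 difference of 7.02 ± 0.38 (SE, adjusted p = 4.28e-10 by edgeR's quasi-likelihood test). Hoxc4, with 1 and 11 UMIs against 45 and 84, differed by 5.87 ± 0.42 (edgeR adjusted p = 1.05e-08). Hoxc6 differed by 5.43 ± 0.38, Hoxc5 by 5.01 ± 0.56 and Hoxc9, the weakest of the cluster, by 2.58 ± 0.55. The fold therefore differed within HoxC, and the gene of the highest paralogue number with a value had the smallest.

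The genes higher in endothelial-like cells fell into a steep and a shallow group. Hoxa9 had 620 and 764 UMIs in endothelial-like against 4 and 9 in fibroblast-like cells, a log2 difference of -4.30 ± 0.27 (edgeR adjusted p = 2.53e-09). Hoxa10 differed by -3.86 ± 0.36 and Hoxb9 by -3.01 ± 0.23, at edgeR adjusted p of 2.11e-07 and 2.51e-08. The HoxD genes were also steep. Hoxd4 had 191 and 343 UMIs in endothelial-like and 0 and 7 in fibroblast-like cells and differed by -3.82 ± 0.45, Hoxd8 by -2.94 ± 0.47 and Hoxd9 by -1.87 ± 0.57. Hoxa6, a low gene, differed by -3.27 ± 1.12 with a wide error. The shallow group lay at a log2 difference between -1.03 and -0.67: Hoxa2 (-1.03), Hoxb8 (-1.03), Hoxb3 (-0.94), Hoxa5 (-0.91), Hoxb7 (-0.77) and Hoxb6 (-0.67). Those that did not pass include Hoxa3 (-0.35), Hoxa4 (-0.61), Hoxa7 (0.09), Hoxb2 (-0.42), Hoxb4 (-0.45) and Hoxb5 (-0.40). Within HoxA the difference thus went from 0.09 at Hoxa7 to -4.30 at Hoxa9, the next gene of the cluster, and within HoxB from -1.03 at Hoxb8 to -3.01 at Hoxb9.

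**Figure D3:**
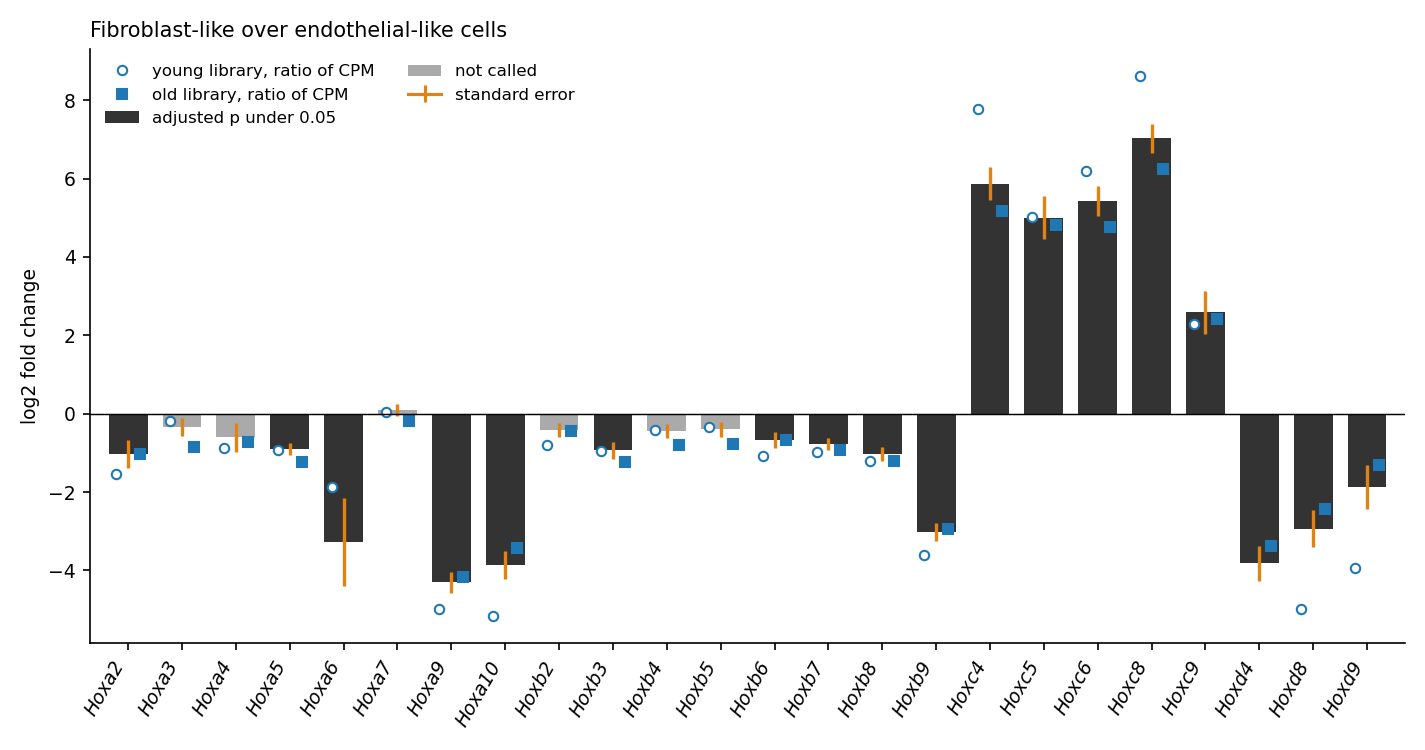
Log2 difference, fibroblast-like minus endothelial-like, of tested Hox genes, ordered by cluster and paralogue number; bars are edgeR's estimates with SE and points the ratio of CPM in each library, with no point for Hoxa6 in the old and Hoxd4 in the young library, where the fibroblast-like count was 0. The 5 HoxC genes lie between 2.58 and 7.02, and Hoxa9, Hoxa10, Hoxb9 and Hoxd4 at or below -3.01.

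By DESeq2, which called 15.3% of all genes it tested, the count of Hox calls in this comparison was 10, and Hoxa2, Hoxa6, Hoxb3, Hoxb6, Hoxb7, Hoxb8, Hoxc9 and Hoxd9 were not called, so the 10 genes called by both tools are Hoxc4, Hoxc5, Hoxc6, Hoxc8, Hoxa5, Hoxa9, Hoxa10, Hoxb9, Hoxd4 and Hoxd8. Scaling to the total UMIs in place of edgeR's TMM factors moved the median of all genes by -0.17, added Hoxb2, Hoxb4 and Hoxb5 to the genes higher in endothelial-like cells and turned Hoxa7 to -0.08.

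RNA of the other class was present at a low level in each class, and its share sets what can be read from low values. In fibroblast-like cells the summed endothelial markers stood at 5.08% of their endothelial-like level in the young and 11.2% in the old library. Paralogue groups 9 to 13 stood at 5.95% and 16.3% there, and HoxD at 2.32% and 16.2%, while HoxA and HoxB together stood at 50.2% and 49.3%. In endothelial-like cells the summed fibroblast markers stood at 2.03% and 3.28% of their fibroblast-like level and HoxC at 1.28% and 4.35%. The posterior and HoxD values in fibroblast-like cells and the HoxC values in endothelial-like cells were therefore, in percent, near those of the other class's markers or a few points above, and whether they come from those cells was not tested.

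The few endothelial-like cells with a HoxC UMI, 13 young and 54 old, were deeper than the rest, with medians of 11191 and 7298 UMIs beside 7372.5 and 4964.5. Dcn, a fibroblast marker, was seen in 69.2% and 70.4% of them beside 49.8% of the other endothelial-like cells in both libraries. Col1a1 was seen in 15.4% of the young and 1.85% of the old ones, beside 9.74% and 4.42%. The Dcn level in the cells with a HoxC UMI was 138.6 and 274.9 CPM, beside 117.4 and 227.3 CPM in the other endothelial-like cells. A UMI of Hoxa9, Hoxa10, Hoxb9, Hoxd4, Hoxd8 or Hoxd9 was carried by 17 young and 47 old fibroblast-like cells. Pecam1, the endothelial marker, stood at 346.8 and 455.0 CPM in these, beside 143.5 and 300.9 CPM in the other fibroblast-like cells. It was seen in 76.5% and 74.5% of these, beside 67.1% and 69.5% of the others. Cdh5, an endothelial cadherin, was seen in 11.8% and 25.5% of these, beside 11.3% and 15% of the other fibroblast-like cells. Its level was 14.2 and 56.5 CPM in these, beside 14.1 and 37.1 CPM in the others.

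Some Hox genes share their transcript end with another annotated gene. The last 500 bases of every GENCODE transcript of a gene were joined into 1 end region on GRCm38. Over 10% of that region overlapped a gene on the same strand for 2 of the 39 Hox genes: 55.2% for Hoxd3 and 39.6% for Hoxd4, both with Gm28230. For 5 genes the overlap was on the opposite strand: 100% for Hoxb2 and 53.4% for Hoxb3 with Hoxb3os, 51.0% for Hoxa4, 33.9% for Hoxa7 and 21.6% for Hoxa3. Whether the counting used strand is not given in the sources used here, so the levels of these genes are uncertain to that extent.

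The endothelial subtypes differed in the summed levels of HoxA, HoxB and HoxD, and in one direction. The scarce HoxC lay the other way, with intervals that overlapped in each library. It stood at 1.01 and 2.27 CPM (5 and 6 UMIs) in the Coch, Sost and Adra2a subtype. In the Bcan, Isl1 and Frzb subtype it stood at 1.57 and 4.81 CPM (8 and 55 UMIs). The Coch, Sost and Adra2a subtype had a Hox sum of 778.2 CPM in the young and 941.2 CPM in the old library, against 553.4 and 667.5 CPM in the Bcan, Isl1 and Frzb subtype. That is a log2 ratio of 0.49 (0.42 to 0.56) in the young and 0.50 (0.43 to 0.56) in the old library. By edgeR's quasi-likelihood test with the animal as a block, 13 of 20 Hox genes tested were higher in the Coch subtype, none was lower and 7 did not pass, while 12.1% of all 11065 genes were called with 6.36% higher in that subtype and 5.74% higher in the other. The median log2 difference was 0.58 over the Hox genes and -0.00 over all genes. All 13 went the same way in both animals, and for 11 the subtype levels did not overlap. The exceptions are Hoxa5 and Hoxb7, whose old Bcan subtype levels exceeded their young Coch subtype levels. Here too the shares over all called genes were not counted, and the counts only describe the called Hox genes.

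Genes from the middle and the posterior side of the clusters made up nearly all of these calls. Hoxb9 stood at 76.6 and 83.9 CPM in the Coch subtype and 41.4 and 46.4 CPM in the Bcan subtype, a log2 difference of 0.89 ± 0.10 (SE, edgeR adjusted p = 1.42e-09). Hoxa9 stood at 72.6 and 86.6 against 51.0 and 46.8 CPM, a difference of 0.72 ± 0.10 (edgeR adjusted p = 3.67e-07). Hoxd9 was low but had a steeper fold, at 12.5 and 12.1 against 2.55 and 4.37 CPM (1.80 ± 0.27, edgeR adjusted p = 2.88e-06). The rest of HoxD was higher too, with Hoxd8 at 0.71 ± 0.19 and Hoxd4 at 0.64 ± 0.14.

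Hoxa7 stood at 104 and 147 CPM in the Coch and 69.9 and 99.3 CPM in the Bcan subtype (0.59 ± 0.08, edgeR adjusted p = 1.52e-07). Its neighbours of groups 5 to 8 ranged from 0.35 for Hoxa5 to 0.70 for Hoxb5, with Hoxb8 at 0.56, Hoxb6 at 0.51 and Hoxb7 at 0.41, and the rare Hoxa6 at 1.33 ± 0.44. Among groups 1 to 4, Hoxd4 was called, as given above, while Hoxa2 (0.60), Hoxa3 (0.40), Hoxb3 (0.38), Hoxb2 (0.14), Hoxb4 (0.11) and Hoxa4 (0.03) did not pass. Hoxa10 (0.31) did not pass either, though its neighbour Hoxa9 did. Summed over the clusters, the Coch over Bcan log2 ratio in the young and old library was 0.26 and 0.33 for groups 1 to 4, 0.51 and 0.46 for groups 5 to 8, and 0.66 and 0.78 for groups 9 to 13.

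**Figure D4:**
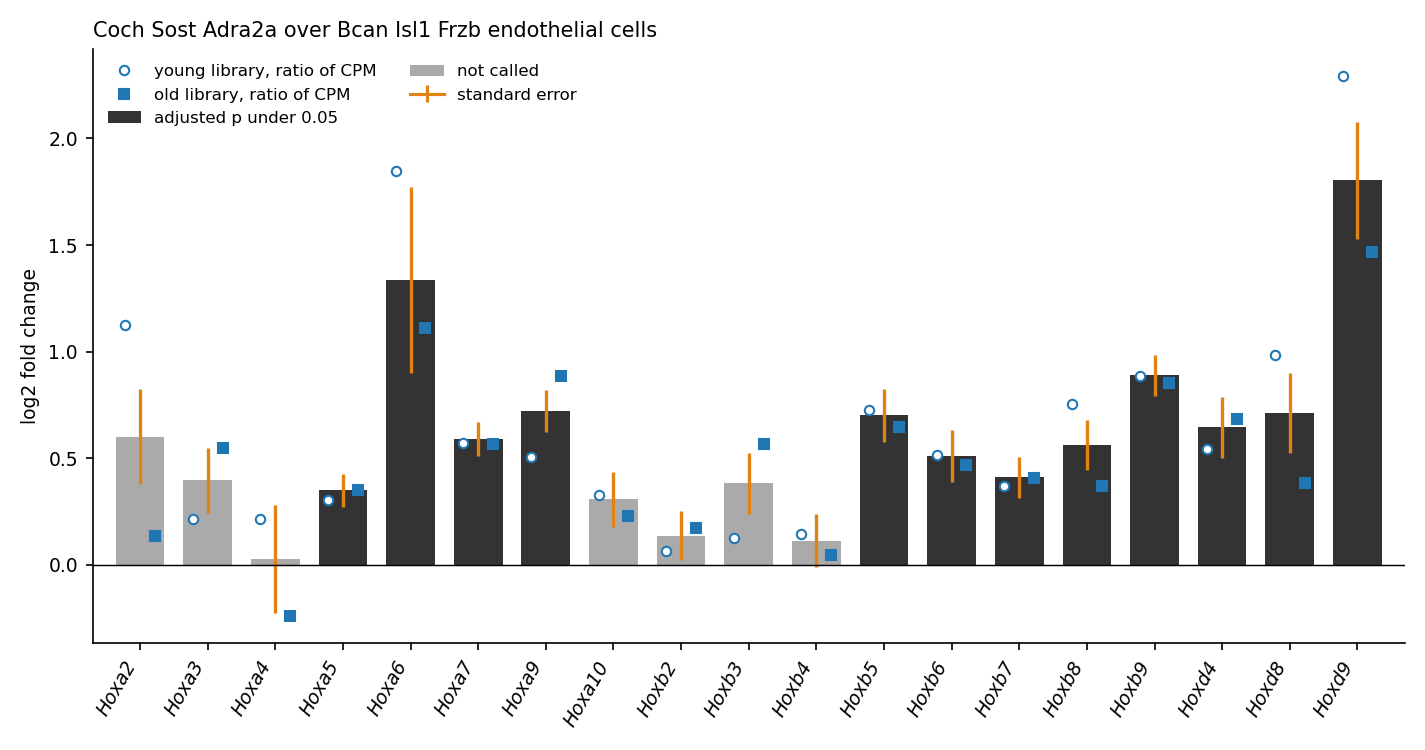
Log2 difference of tested Hox genes, Coch, Sost and Adra2a subtype minus Bcan, Isl1 and Frzb subtype, by cluster and paralogue number; bars are edgeR's estimates with SE, dark where the adjusted p is under 0.05 and grey where not, and points are the ratio of CPM in each library. Hoxd9, Hoxb9 and Hoxa9 lie at 1.80, 0.89 and 0.72, while Hoxa4, Hoxb4 and Hoxb2 lie at 0.14 or below.

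With 2 animals this subtype result rests on the animal being kept as a block. Without it no Hox gene passed by edgeR. By the same fit 9 had an unadjusted p under 0.05, and the share of all genes at that threshold was not counted. All 13 called genes kept their direction, but this adds no support. Both subtypes are present in both libraries, so leaving out the block could hardly turn a direction. With it, DESeq2 called 2.15% of all genes and 4 Hox genes: Hoxa7, Hoxa9, Hoxb9 and Hoxd9.

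Fewer Hox genes could be tested between the fibroblast subtypes. Of 13 Hox genes tested, 2 were higher in the Gdf10, Mfap4 and F3 subtype by edgeR's quasi-likelihood test and none was lower, beside 9.63% of all 8466 genes called, 5.1% higher and 4.52% lower. Hoxa3 stood at 34.8 and 26.0 CPM there and at 9.71 and 9.60 CPM in the Dact2, Igfbp5 and Sema3c subtype (log2 difference 1.61 ± 0.42, edgeR adjusted p = 0.00335). Hoxc8 stood at 58.4 and 52.1 against 28.4 and 30.9 CPM (0.86 ± 0.29, edgeR adjusted p = 0.0409). The old Gdf10 subtype holds only 63 cells with 5 Hoxa3 and 10 Hoxc8 UMIs. These cells were shallow, with a median of 2701 UMIs, and 42 of them lay under the thinning depth. With a stricter cell filter the old Gdf10 subtype held 24 cells, and also 24 with doublet calls kept. The Hox sum was 480.0 and 604.1 CPM in the Gdf10 subtype and 378.0 and 425.9 CPM in the other, a log2 ratio of 0.34 (0.14 to 0.54) in the young and 0.50 (0.22 to 0.78) in the old library. On simulated data edgeR recovered 45% of 2-fold changes here and 71% between the endothelial subtypes. DESeq2 called neither gene, nor did edgeR without the block.

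Between the libraries the Hox sum of endothelial-like cells was slightly higher in the old one, with a log2 ratio of 0.11 (0.07 to 0.16). Within the Coch subtype the ratio was 0.27 (0.20 to 0.35) and within the Bcan subtype 0.27 (0.21 to 0.33), larger than in the class as a whole. The lower-Hox Bcan subtype held 1964 of the 2384 old cells and 634 of the 1081 young ones, and several clusters came mostly from 1 library. Of the 21 Hox genes with at least 20 UMIs, 12 were higher and 9 lower in the old library, beside 58.7% of all genes higher. The counting interval lay above 0 for 8 of the 21 and below 0 for 3, beside 25.9% and 16.3% of all genes, and the median was 0.18 beside 0.07 over all genes. Only Hoxc9, with 3 young and 22 old UMIs, passed 2-fold, which 7.05% of all genes did.

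The bands of paralogue groups differed, and their members did not all go one way. Groups 1 to 4 stood at 0.12 (0.02 to 0.21). Groups 5 to 8 were higher in the old endothelial-like cells by 0.24 (0.18 to 0.30), with Hoxa5 at 0.30 (0.19 to 0.42), Hoxa7 at 0.32 (0.20 to 0.44), Hoxb5 at 0.37 (0.15 to 0.58) and Hoxb7 at 0.29 (0.14 to 0.45). In the same band Hoxb6 was lower, at -0.23 (-0.44 to -0.02), and Hoxd8 stood at -0.29 (-0.61 to 0.03). Groups 9 to 13 together were at -0.21 (-0.31 to -0.12), although Hoxc9 stood at 2.39 (0.65 to 4.77). Within the subtypes that lower value was not found, since groups 9 to 13 stood at 0.09 (-0.06 to 0.24) in the Coch and -0.03 (-0.16 to 0.11) in the Bcan subtype. Of the genes plotted by age, Hoxa10 was the only one whose interval lay below 0 in the class, at -0.47 (-0.68 to -0.25), and within both subtypes, at -0.44 (-0.84 to -0.05) and -0.34 (-0.63 to -0.05). Hoxa9 stood at -0.18 (-0.34 to -0.03) in the class, 0.25 (0.01 to 0.50) in the Coch and -0.13 (-0.34 to 0.09) in the Bcan subtype.

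**Figure D5:**
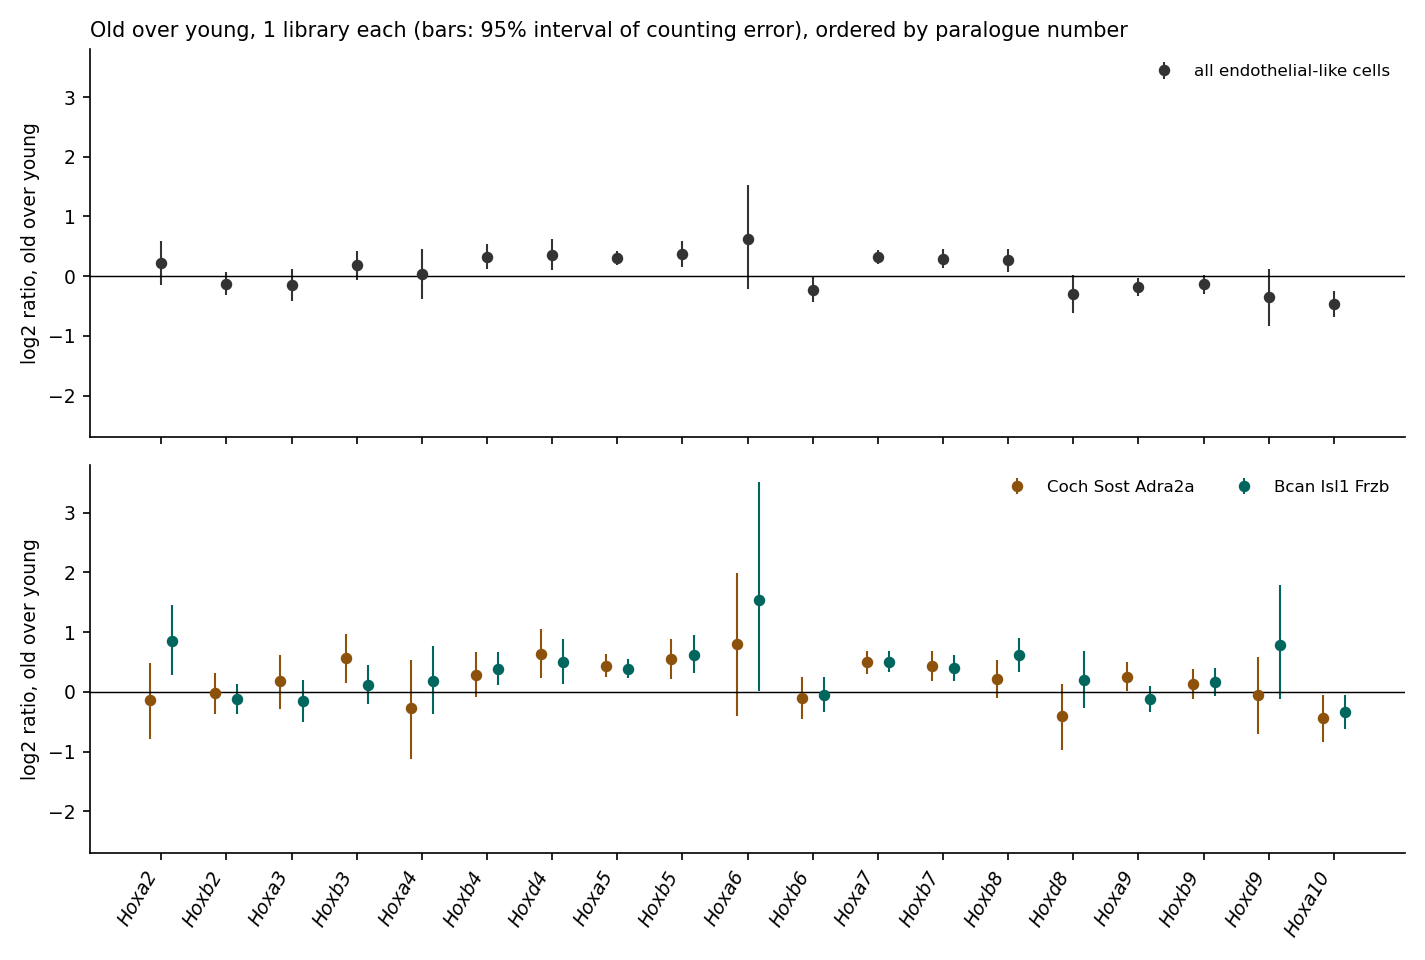
Log2 ratio of CPM, old over young, of Hox genes in endothelial-like cells (top) and within each endothelial subtype (bottom), ordered by paralogue number, with 95% counting intervals. Hoxa10 lies below 0 in the class and in both subtypes (-0.47, -0.44 and -0.34), and Hoxa5, Hoxa7, Hoxb5 and Hoxb7 lie above 0 in all 3, while Hoxb6 lies below 0; with 1 library per age there is no test.

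In fibroblast-like cells the Hox sum was about equal in the libraries, with a log2 ratio of 0.08 (-0.05 to 0.21). Of 18 Hox genes with at least 20 UMIs, 11 were higher and 7 lower in the old library, beside 41.5% of all genes higher. The interval lay above 0 for 1, Hoxc9, and below 0 for 1, Hoxa3, beside 8.89% and 17.3% of all genes. Hoxc9 stood at 2.51 with 3 and 25 UMIs and was the 1 gene past 2-fold, beside 8.56% of all genes, and Hoxa3 stood at -0.79. The Gdf10 subtype, where Hoxa3 is higher, held 102 of the 239 young and 63 of the 572 old fibroblast-like cells.

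The cofactors were also compared, with edgeR's quasi-likelihood test as for the Hox genes. Unlike the Hox genes, the cofactor, retinoic acid, Polycomb, Trithorax and regional genes below were not kept out of the clustering. They may have helped to define the classes and subtypes compared here, so their calls are a description and no independent support. Of 9 cofactor genes, 3 were higher in fibroblast-like cells, among them Pbx4 (2.77) and Meis3 (1.84), 3 were lower, among them Meis2 (-1.11) and Pknox2 (-1.01), and 3 did not pass, beside 45.4% of all genes called. Between the endothelial subtypes 8 were tested, of which 1 was higher in the Coch subtype and 4 did not pass, beside 12.1% of all genes called. The 3 that were higher in the Bcan subtype were Meis1 (-1.71), Pknox2 (-0.87) and Meis2 (-0.60), opposite to the called Hox genes.

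Among 20 genes of retinoic acid signalling, the Cdx factors and Gdf11, which set Hox borders in the embryo, Cdx1, Cdx2 and Cdx4 had no UMI in either class. Of 12 tested between the classes, 6 were higher in fibroblast-like cells, among them Aldh1a3 (5.83) and Gdf11 (3.43), 2 were lower, among them Aldh1a2 (-2.14), and 4 did not pass, beside 45.4% of all genes called. Between the endothelial subtypes 4 of 11 were higher in the Coch subtype, among them the retinoic acid receptor gene Rarb (2.56) and Cyp26b1 (1.20), an enzyme that breaks retinoic acid down. Another 2 were lower, Aldh1a2 (-3.19), which makes retinoic acid, and Aldh1a3 (-1.29), beside 12.1% of all genes called. The endothelial-like levels of both Aldh1a2 and Cyp26b1 were far apart between the libraries. Aldh1a2 stood at 2.69 CPM in the young and 50.9 CPM in the old, and Cyp26b1 at 0.497 and 19.7 CPM. With 4 and 1 young UMIs in the Coch and Bcan subtypes, the Cyp26b1 call rests almost wholly on the old library. Of 31 Polycomb and Trithorax genes, whose products hold Hox clusters silent or active, 2 were higher in fibroblast-like cells, Rnf2 (0.94) and Psip1 (0.65). Another 11 were lower and 18 did not pass, beside 45.4% of all genes called. Between the endothelial subtypes none of the 31 was called, beside 12.1% of all genes.

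Of 18 regional transcription factor genes tested between the classes, 7 were higher in fibroblast-like cells, among them Meox2 (6.73) and Prrx2 (6.41), and 10 were lower, among them Isl1 (-3.69) and Foxc2 (-2.74), beside 45.4% of all genes called. Between the endothelial subtypes 13 were tested, beside 12.1% of all genes called. Tbx1, a pharyngeal arch gene, was higher in the Coch subtype (2.86), as was Foxc1, and 8 were higher in the Bcan subtype, among them Pax9 (-2.80) and Isl1 (-2.73), which is itself one of the trio that named that subtype. Hox cluster RNAs that encode no Hox protein followed their clusters in part. Hoxd3os1 (-3.90) and Gm53 (-5.19) were higher in endothelial-like cells, and Hoxb5os (1.87) and Hoxb3os (1.19) in fibroblast-like cells. Another 2 of the 6 tested did not pass, beside the same 45.4% of all genes called. Between the endothelial subtypes 5 of these RNAs were tested and none was called, with a median log2 difference, Coch minus Bcan, of -0.20. Hotair, which lies in the posterior part of HoxC, Hottip at the far end of HoxA, and Haglr had no UMI in either class, and Hotairm1, at the forward end of HoxA, stood at 35.1 and 25.7 CPM in endothelial-like and 17.5 and 25.6 CPM in fibroblast-like cells.

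The genes most like the Hox sum over the 8 endothelial clusters by library, by Pearson's r of log2(CPM + 1) among 9998 genes, were Pltp (0.966), Sh3bgrl3 (0.957), Cenpb (0.953), Gars (0.942) and Gkn3 (0.941). The least alike were Tm2d2 (-0.982), Pcolce2 (-0.975), Mfap5 (-0.953), Pdia5 (-0.949) and Aldh3a1 (-0.946). The 8 points share 2 libraries and their depths, and these values are a description only.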

How the data were processed

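Per the labels' protocols the libraries were made with the Chromium 3′ v2 kit, and per the submitters' processing notes Cell Ranger and GRCm38 were used (version, annotation, strand setting: not given in the sources used here). What the authors deposited are UMI counts, whole numbers for each gene in each cell, without normalization. Barcodes under 200 genes or over 10% mitochondrial UMIs were dropped, and Scrublet doublet calls (6 per library, 0.440% and 0.180% of cells, so the caller may have missed most doublets) were left out, leaving 1359 young and 3330 old cells. Clustering used scanpy 1.11.5 (2000 variable genes, 30 components, 15 neighbours, Leiden resolution 0.5) without the 58 genes of the Hox cluster spans. A cluster took a class name when at least 3 of its markers were seen in 25% of its cells, and a subtype name from 2 of 3 markers. Counts summed per class and library were tested with edgeR 4.0.16 (quasi-likelihood, TMM, animal as block, called at an adjusted p of 0.05), with DESeq2 1.42.0 as an alternative; the sums are the replicates, so each class contrast has 1 sum per animal and 2 animals. On simulated data with known changes, edgeR recovered 65% of 2-fold and 97% of 4-fold changes between the classes. Shares have exact Clopper-Pearson, levels exact Poisson and ratios exact conditional binomial 95% intervals. A level of 0 is given the limit that 3 counts allow. Genes are named where they had at least 20 UMIs. The members, lists and tests were chosen with earlier results of these data known. Promoters are RefSeq's on GRCm38.p6, gene overlaps GENCODE vM21's. Results for a few genes are not reported here.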

Additional observations from a re-analysis of the deposited data

Results flagged for a closer look

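Hox paralogue groups 9 to 13 differed in direction between the classes when the libraries were compared. Their log2 ratio, old over young, was -0.21 (-0.31 to -0.12) in endothelial-like cells and 1.24 (0.50 to 2.04) in fibroblast-like cells, from 20 young and 69 old UMIs in the latter. Within the endothelial subtypes the ratio was 0.09 (-0.06 to 0.24) in the Coch and -0.03 (-0.16 to 0.11) in the Bcan subtype. The lower value of the class was therefore not found within either. In fibroblast-like cells Hoxc9 alone gave 3 of the young and 25 of the old UMIs. The difference between the classes was not tested, since each age is 1 library. In the same fibroblast-like cells the summed endothelial markers went from 5.08% to 11.2% of their endothelial-like level and groups 9 to 13 from 5.95% to 16.3%; the part of these markers' source cells in the result was not tested.

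Hox signal also appeared in cells outside the comparisons. The 15 young and 48 old cells that took no class name had Hox sums of 748.1 CPM (593.2 to 931.0) and 633.5 CPM (561.8 to 711.8), with no HoxC UMI, 168 and 110 CPM from groups 9 to 13, and Fabp4, Krt18, Flt4 and Flt1 among their leading genes. These cells were rich in endothelial RNA. Their summed endothelial markers stood at 8575 and 6590 CPM, beside 9038 and 8802 CPM in endothelial-like cells. Their summed lymphatic markers stood at 1917 and 2411 CPM, with 1 of the 6 markers seen in 25% of the cells of either library. Their summed smooth muscle markers stood higher, at 2310 and 3074 CPM, beside 323 and 321 CPM in endothelial-like cells. The 11 old smooth muscle-like cells had a Hox sum of 320.9 CPM (198.6 to 490.5), 107 CPM from HoxA and 214 CPM from HoxB, with no HoxC or HoxD UMI. Macrophage-like cells stood at 297.8 CPM in the young and 116.2 CPM in the old library.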

How the results depend on the processing

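Of 133 alternative values of the main Hox results, 112 kept their direction and size and 21 moved. Fibroblast-like against endothelial-like calls were 18, beside 45.4% of all genes called, 10 by DESeq2 and between 14 and 21 under the other settings. For most of the other settings the share of all genes called is not given here. A change in the Hox count there cannot be told from a change in how many genes the setting calls. Endothelial subtype calls were 13, beside 12.1% of all genes called, and 4 by DESeq2. They were 0 without the library as a block (the block is the animal) and between 10 and 15 under the other settings. Without the block 24 of all 11065 genes passed edgeR's adjusted threshold. By the same fit 9 Hox genes had an unadjusted p under 0.05, and the share of all genes at that threshold was not counted. The 2 fibroblast subtype calls stood beside 9.63% of all genes called. They became 1 with doublet calls kept, 1 at Leiden resolution 1.0 and 1 with no filter on low counts. By DESeq2 they became 0 (0 at an unadjusted p under 0.05) and without the block 0 (2 at an unadjusted p under 0.05). Hoxa7 between the classes went from 0.09 to -0.079 with scaling to total UMIs. Hoxa4 between the endothelial subtypes, never called, went from 0.03 to -0.0194 with doublet calls kept, -0.0115 with a stricter cell filter, -0.24 with classes set per cell and -0.10 with Hox genes kept in the clustering. The Coch over Bcan ratio of the Hox sum in the young library was 0.60 with classes set per cell. With mitochondrial, ribosomal and haemoglobin genes left out of the total, the fibroblast-like over endothelial-like ratio in the old library was -0.62 and the old over young ratio in fibroblast-like cells was 0.23 (0.10 to 0.36). The old over young ratio in endothelial-like cells was 0.27 within the Coch and 0.27 within the Bcan subtype. Shares of cells with a Hox UMI, young and old, at 2200 UMIs were 72.6% and 76.7% for endothelial-like and 54.4% and 59.6% for fibroblast-like cells, and unthinned 93.4% and 90.0%, and 92.5% and 83.9%. The shares of Hox UMIs from HoxC and from groups 9 to 13 were recomputed with other cell settings, chosen after seeing the data; for groups 9 to 13 in young fibroblast-like cells they ran from 2.09% to 3.08%. The cause of these shifts was not tested. No paired analysis was possible because each age has 1 animal, and pairing between classes is the animal block itself. Depth limits the rare genes: a fibroblast-like level under 1.46 CPM in the young library cannot be told from 0. Removing 1 animal leaves no residual degrees of freedom, so no such fit was run.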
